A study of Mus musculus with 18 samples.

Results

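The 10 genes described here, Pecam1, Cdh5, Cldn5, Emcn, Kdr, Tek, Vwf, Sox17, Sox18 and Apold1, are markers and regulators of vascular endothelium. They were chosen by name, with earlier results of these data known. All 10 were found by symbol among the 53819 gene entries of the count tables, and all 10 were among the 18618 genes that passed the low-count filter, as they also did when the filter was applied to the libraries of either time alone. The tissue was the caput epididymis of C57BL/6J mice. A control group, a 6% EtOH (ethanol) group and a 10% EtOH group were taken at 10 weeks of treatment, and another control, 6% EtOH and 10% EtOH group after EtOH had ceased, an interval that the series title gives as one month. Each of the 6 groups held 3 libraries, 18 in all. The sources used here do not give the route of EtOH, the age of the mice or the length of treatment before cessation, nor is it stated whether libraries came from separate animals. The p-values therefore rest on the spread among these libraries, which may be technical. Since both times were separate sets of tissue, time, age and collection set cannot be told apart.

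Endothelial cells line every blood vessel. They are held together by junctional proteins, grow and survive through receptors for VEGF and the angiopoietins, and store clotting and adhesion proteins that they can release or display when stimulated. In the epididymis a dense capillary network lies close under the duct epithelium, most densely around its first segments, and supplies a tissue that consists mainly of epithelium, smooth muscle and sperm-filled lumen. In RNA from whole tissue, fewer endothelial cells and less RNA per endothelial cell cannot be told apart.

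Promoter sequences were available for 5 of the 10 genes (RefSeq, build GRCm38.p6). They are shown because these genes moved together over the libraries while 1 of them, Apold1, also behaved in its own way. Each runs 5′ to 3′ on the gene's strand within the 250 bases before its start site. Capitals mark matches, on either strand, to the motifs searched: ETS (CAGGAAG or CCGGAAG), SOX (ACAATNG), AP-1 (TGANTCA), CRE (TGACGTCA), the CArG box, the motif TATAAA of the TATA box, the motif CCAAT and the GC box (GGGCGG).
Kdr, chr5:75978459-75978705, minus strand: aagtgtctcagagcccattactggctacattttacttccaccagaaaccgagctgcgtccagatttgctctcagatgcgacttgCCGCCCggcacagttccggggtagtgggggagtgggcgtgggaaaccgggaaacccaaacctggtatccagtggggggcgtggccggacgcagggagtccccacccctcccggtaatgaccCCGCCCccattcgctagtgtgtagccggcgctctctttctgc
Tek, chr4:94739039-94739288, plus strand: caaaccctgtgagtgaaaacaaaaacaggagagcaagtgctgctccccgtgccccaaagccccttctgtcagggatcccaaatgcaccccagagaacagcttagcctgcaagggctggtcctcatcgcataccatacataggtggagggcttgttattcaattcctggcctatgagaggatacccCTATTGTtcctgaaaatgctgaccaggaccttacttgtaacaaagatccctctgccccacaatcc
Cldn5, chr16:18776597-18776846, plus strand: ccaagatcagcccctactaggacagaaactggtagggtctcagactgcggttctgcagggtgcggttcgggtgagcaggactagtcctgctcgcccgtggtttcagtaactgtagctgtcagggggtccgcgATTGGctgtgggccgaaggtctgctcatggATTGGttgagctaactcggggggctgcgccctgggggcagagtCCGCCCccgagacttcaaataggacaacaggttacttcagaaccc
Emcn, chr3:137340828-137341066, plus strand: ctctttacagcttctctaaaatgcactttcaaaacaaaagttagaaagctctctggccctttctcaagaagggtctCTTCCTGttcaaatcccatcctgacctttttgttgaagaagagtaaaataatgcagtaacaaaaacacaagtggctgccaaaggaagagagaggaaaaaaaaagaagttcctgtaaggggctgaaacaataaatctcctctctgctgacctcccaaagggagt
Apold1, chr6:134981953-134981982, plus strand: ATTGGctcctgggagcTATAAAgtatgctc

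The annotated Apold1 gene already covers the beginning of its 250-base window, so that window was not printed in full. The Apold1 run is a 30-base stretch that begins 48 bases before the start site, placed at the first of its CCAAT and TATA matches. It held a CCAAT match and a TATA match, the latter beginning 32 bases before the start site, and a further ETS match (CTTCCTG) lay 218 bases before it. None of the windows of the other 4 genes held a TATA match. Kdr had 2 GC boxes, Cldn5 had 2 CCAAT matches and 1 GC box, Tek had 1 SOX match and Emcn 1 ETS match (CTTCCTG, the reverse complement of CAGGAAG). Among 32851 promoter windows of 250 bases, TATA was found in 12.4%, CCAAT in 33.8%, the GC box in 32.7%, CAGGAAG in 10.8% and the SOX motif in 6.91%. No AP-1, CRE, CArG or CCGGAAG match was found in the 5 windows, and these occurred in 6.75%, 1.55%, 1.47% and 6.91% of all windows. The matches are descriptions of letters and no binding was measured.

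The libraries held 15599991 to 21067237 assigned reads at 10 weeks and 10719320 to 17197177 after cessation. In a principal component analysis without the vascular genes, the first component held 28.2% of the variance, and 6% EtOH cessation replicate 1 (99) and control cessation replicate 3 (93.1) had the scores farthest from 0, the next library scoring 57.4. For 6% EtOH cessation replicate 1 the identifier in the sample title is not the one on its deposited table, and the identifier of 10% EtOH replicate 3 of 10 weeks follows a different pattern from those of its group. Both outlying libraries were also the richest in endothelial transcripts. Differences of the 10 genes that rest on them are therefore also given without 1 or both, and so are the lists' calls between the times. Correlations, spreads within groups, the likeness ranking and the lists' medians in the EtOH comparisons are given with all libraries only. Reads of Gpx5, a secreted enzyme of the caput epithelium, made up 1.97% to 4.73% of every library.

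Levels are given as CPM, read counts relative to a library's scaled total, changes as log2 fold changes ± standard error, and a change was called at an adjusted p under 0.05. Levels per kilobase of exon, the scale on which genes can be compared, placed Cdh5 first at both times (2.75 CPM per kb on average over the 9 libraries of 10 weeks, 6.14 over the 9 after cessation). Pecam1 (1.62), Kdr (1.58), Cldn5 (1.58) and Vwf (1.35) followed at 10 weeks, then Sox18 (0.908), Tek (0.80) and Emcn (0.636). Apold1 (0.160) and Sox17 (0.146) were the lowest. After cessation Apold1 stood at 2.60 CPM per kb, between Kdr (3.32) and Vwf (2.36), while Sox17 remained lowest at 0.454. The ranges of neighbours in both orders overlapped over the libraries. In every library all 10 genes were detected, with Apold1 at 4 to 14 reads at 10 weeks and 40 to 338 after cessation, and Sox17 at 6 to 78 reads over all libraries.

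**Figure D1:**
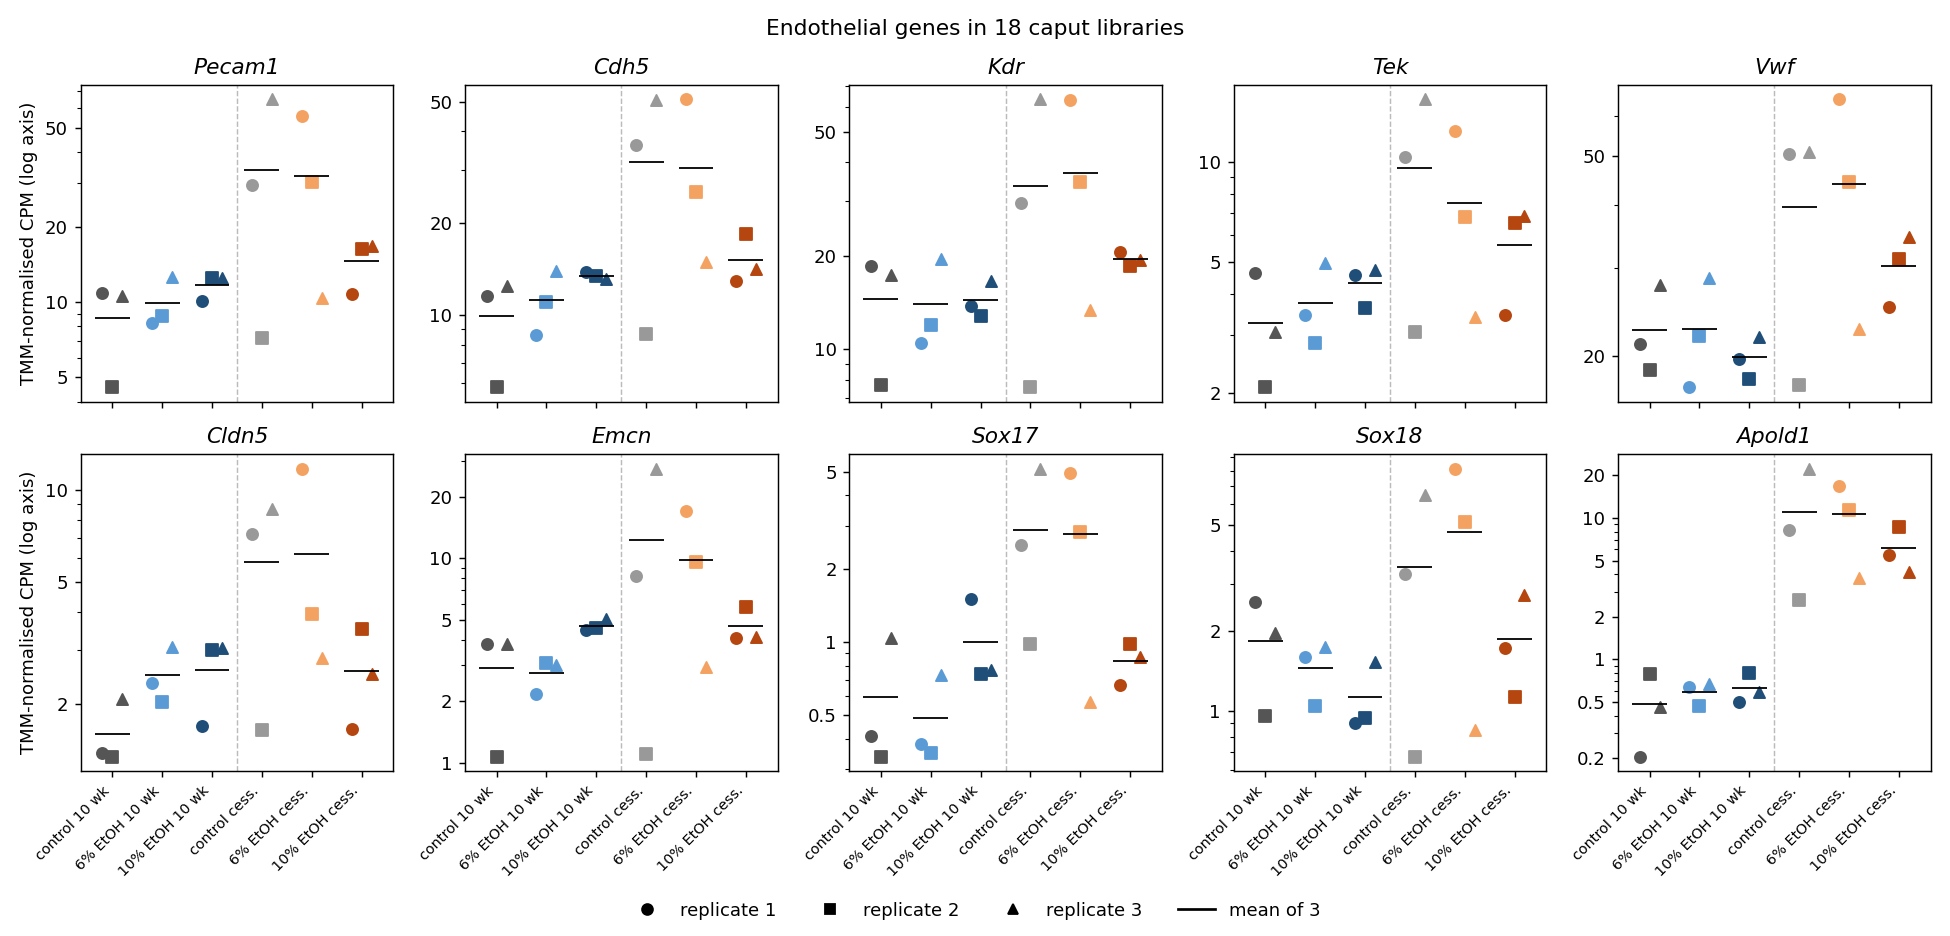
TMM-normalised CPM (log axis) of each endothelial gene in the 18 libraries, by group; symbols mark the replicate and lines the mean of 3. In all 10 panels control cessation replicate 3 and 6% EtOH cessation replicate 1 are the highest points, and for Apold1 alone the 9 libraries after cessation (2.64 to 22.4 CPM) lie above the 9 of 10 weeks (0.205 to 0.805 CPM).

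Of the genes of endothelial contacts and the cell surface, Pecam1 encodes the adhesion molecule CD31. It measured 10.9, 4.56 and 10.6 CPM in the controls of 10 weeks, 8.28, 8.83 and 12.6 CPM with 6% EtOH and 10.1, 12.5 and 12.4 CPM with 10% EtOH. After cessation it measured 29.4, 7.18 and 64.9 CPM in controls, 55.9, 30.2 and 10.4 CPM with 6% EtOH and 10.8, 16.4 and 16.7 CPM with 10% EtOH. The later control and 6% EtOH groups each spanned libraries above and within the range of 10 weeks, and the 3 treatments overlapped at both times.

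Cdh5, the VE-cadherin of endothelial adherens junctions, measured 11.6, 5.80 and 12.4 CPM in the controls of 10 weeks, 8.60, 11.04 and 13.95 CPM with 6% EtOH and 13.8, 13.5 and 13.2 CPM with 10% EtOH. The 10% EtOH group was narrow and lay just above every control. After cessation the levels were 36.03, 8.65 and 50.7 CPM in controls, 51.0, 25.4 and 14.9 CPM with 6% EtOH and 12.9, 18.5 and 14.2 CPM with 10% EtOH. Control replicate 2 was the lowest of the later libraries, as it was for Pecam1.

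Cldn5, the claudin of endothelial tight junctions, measured 1.39, 1.35 and 2.08 CPM in the controls of 10 weeks, 2.36, 2.03 and 3.07 CPM with 6% EtOH and 1.71, 3.02 and 3.07 CPM with 10% EtOH. In the later groups it measured 7.18, 1.66 and 8.66 CPM in controls, 11.8, 3.94 and 2.83 CPM with 6% EtOH and 1.66, 3.53 and 2.52 CPM with 10% EtOH. The later 10% EtOH libraries were all below the higher 2 of the 3 controls. Emcn encodes endomucin, a sialomucin of capillary and venous endothelium. It measured 3.80, 1.07 and 3.82 CPM in the controls of 10 weeks, 2.17, 3.08 and 3.004 CPM with 6% EtOH and 4.47, 4.56 and 5.01 CPM with 10% EtOH, where it exceeded every control and every 6% EtOH library. Libraries taken after cessation held 8.19, 1.10 and 27.4 CPM in controls, 16.99, 9.59 and 2.92 CPM with 6% EtOH and 4.05, 5.79 and 4.11 CPM with 10% EtOH. Its 24.9-fold range among the later controls was the widest within any group for any of the 10 genes.

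Of the receptors, Kdr encodes VEGF receptor 2, the main signalling receptor for VEGF-A. It measured 18.5, 7.71 and 17.4 CPM in the controls of 10 weeks, 10.5, 11.97 and 19.5 CPM with 6% EtOH and 13.8, 12.8 and 16.6 CPM with 10% EtOH. After cessation Kdr measured 29.4, 7.55 and 63.6 CPM in controls, 63.1, 34.4 and 13.4 CPM with 6% EtOH and 20.6, 18.5 and 19.3 CPM with 10% EtOH. The later 10% EtOH libraries lay within 1.11-fold of each other and inside the span of the controls. Tek encodes TIE2, the angiopoietin receptor that steadies mature vessels. It measured 4.62, 2.08 and 3.06 CPM in the controls of 10 weeks, 3.44, 2.85 and 4.94 CPM with 6% EtOH and 4.57, 3.62 and 4.72 CPM with 10% EtOH. For Tek the later levels were 10.3, 3.07 and 15.5 CPM in controls, 12.4, 6.83 and 3.40 CPM with 6% EtOH and 3.45, 6.54 and 6.85 CPM with 10% EtOH. Each later group again held at least 1 library inside the range of 10 weeks.

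Vwf, von Willebrand factor, is the clotting protein of the Weibel-Palade bodies. It measured 21.1, 18.8 and 27.8 CPM in the controls of 10 weeks, 17.3, 21.96 and 28.6 CPM with 6% EtOH and 19.8, 18.05 and 21.8 CPM with 10% EtOH. The later libraries held 50.3, 17.6 and 50.9 CPM in controls, 64.8, 44.4 and 22.6 CPM with 6% EtOH and 25.02, 31.3 and 34.5 CPM with 10% EtOH. Vwf had the smallest range of the 10 genes over all libraries, 3.74-fold from lowest to highest, against 25.7-fold for Emcn and 109-fold for Apold1.

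Sox17 and Sox18 are SOX-F transcription factors of arterial and lymphatic vessel development. Sox17 measured 0.411, 0.338 and 1.04 CPM in the controls of 10 weeks, 0.382, 0.349 and 0.734 CPM with 6% EtOH and 1.51, 0.738 and 0.767 CPM with 10% EtOH. After cessation the values were 2.49, 0.982 and 5.16 CPM in controls, 4.94, 2.82 and 0.566 CPM with 6% EtOH and 0.664, 0.977 and 0.865 CPM with 10% EtOH. These last 3 libraries were below every control of that time, the lowest control (0.982 CPM) lying just above the highest of them (0.977 CPM). Sox18 measured 2.57, 0.957 and 1.97 CPM in the controls of 10 weeks, 1.59, 1.05 and 1.74 CPM with 6% EtOH and 0.904, 0.939 and 1.53 CPM with 10% EtOH. Levels after cessation were 3.26, 0.675 and 6.48 CPM in controls, 8.15, 5.12 and 0.849 CPM with 6% EtOH and 1.73, 1.13 and 2.74 CPM with 10% EtOH. Both times and all treatments overlapped for Sox18.

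Apold1 encodes a protein known as an early response gene product of endothelial cells. It measured 0.205, 0.788 and 0.463 CPM in the controls of 10 weeks, 0.637, 0.465 and 0.667 CPM with 6% EtOH and 0.502, 0.805 and 0.590 CPM with 10% EtOH. After cessation Apold1 measured 8.25, 2.64 and 22.4 CPM in controls, 16.7, 11.4 and 3.77 CPM with 6% EtOH and 5.44, 8.64 and 4.18 CPM with 10% EtOH. All 9 later libraries exceeded all 9 earlier ones, and within each time the 3 treatments overlapped.

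The levels of the 10 genes were correlated from library to library. Pairwise correlations of log2 CPM had a median Pearson r of 0.859 over the 18 libraries (45 pairs, 0.567 to 0.978), and of 0.869 (0.601 to 0.972) after the group means had been removed. These points share library, depth and scaling factor, so they are a description. The correlation was closer after cessation: the r of a gene with the mean of the other 9 was 0.912 to 0.997 over the 9 later libraries, and -0.268 (Apold1) to 0.934 (Pecam1) over the 9 of 10 weeks, with Sox18 at 0.177, Vwf at 0.474 and Cldn5 at 0.586. Control cessation replicate 3 and 6% EtOH cessation replicate 1 held the 2 highest levels of all 10 genes. Next came 6% EtOH cessation replicate 2 and control cessation replicate 1, which were among the 4 highest for 9 of 10 genes each. The mean level of the 10 genes, centred on each gene's own mean, was 2.01 and 1.95 (log2) in the first pair, 1.09 in 6% EtOH cessation replicate 2 and 1.12 in control cessation replicate 1. Control cessation replicate 2 lay at -0.82, below 8 of the 9 libraries of 10 weeks.

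**Figure D2:**
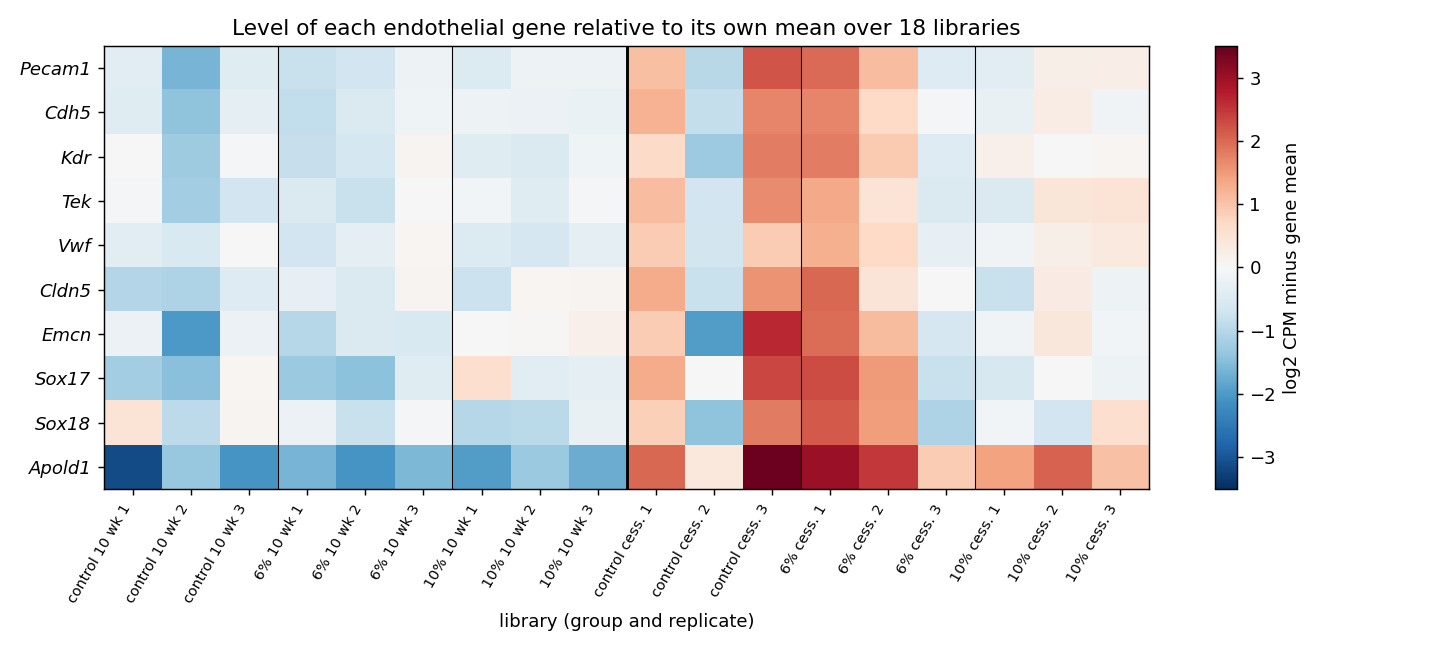
Heat map of log2 CPM minus the gene's mean over 18 libraries, with genes in rows and libraries in columns; thick and thin lines separate times and groups. The columns of control cessation replicates 1 and 3 and 6% EtOH cessation replicates 1 and 2 are high in all 10 rows, and the Apold1 row is low in all 9 libraries of 10 weeks.

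Spread within groups followed the same libraries. The median SD of the 10 genes on the log2 scale was 1.44 in the controls and 1.12 with 6% EtOH after cessation, against 0.368 and 0.347 for all tested genes in those groups. It was 0.322 with 10% EtOH after cessation (all genes 0.306), and at 10 weeks 0.707 in controls (0.173), 0.355 with 6% EtOH (0.196) and 0.20 with 10% EtOH (0.261). The endothelial genes thus spread more than the median gene in 5 of the 6 groups, the exception being 10% EtOH at 10 weeks.

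EtOH comparisons were made within each time, the 2 doses sharing the same controls. None of the 10 genes passed at an adjusted p under 0.05 in any of the 6 comparisons of treatments or in either test of a dose effect that differed between the times. In each of these 8 tests the count over all genes was also 0 of 18618 (0%), so the members' count is that of the background. At an unadjusted p under 0.05 no member was reached with 6% EtOH (2.36% of all genes) or 10% EtOH (13.4%) against control at 10 weeks or between the doses at that time (2.83%). The same held for 6% EtOH after cessation (1.62%) and for the change of the 6% EtOH effect between the times (3.01%).

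With 6% EtOH at 10 weeks, 6 of 10 endothelial genes lay higher and 4 lower (48.9% of all genes lay higher). Their median log2 fold change was 0.09, against -0.01 for all genes, and it turned to -0.11 without control replicate 2 and to -0.10 without 6% EtOH replicate 3. With 10% EtOH at 10 weeks, 7 of 10 lay higher (48.8% of all genes did) and the median was 0.41, or 0.16 without control replicate 2. Cdh5 averaged 13.5 ± 0.33 CPM with 10% EtOH against 9.95 ± 3.61 CPM in controls (SD, n = 3), a log2 fold change of 0.44 ± 0.51 (SE) that did not pass (adjusted p = 0.732). Emcn averaged 4.68 ± 0.29 CPM against 2.90 ± 1.58 CPM (0.69 ± 0.78, adjusted p = 0.724). For these 2 genes every 10% EtOH library lay above every control, as was the case for 15.2% of all genes. The 95% interval of Emcn ran from -0.97 to 2.35. Emcn and Sox17 also lay higher with 10% than with 6% EtOH in every library of 10 weeks (0.77 ± 0.79 and 1.05 ± 0.72, adjusted p = 0.994 for each), which held for 7.22% of all genes.

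After cessation, 6% EtOH and control libraries had near-equal averages, with a median log2 fold change of -0.04 over the 10 genes. That value moved either way with single libraries. The median was -0.71 without 6% EtOH cessation replicate 1 and -0.47 without control cessation replicate 2, and it was 0.75 without control cessation replicate 3 and 0.39 without 6% EtOH cessation replicate 3. With 10% EtOH after cessation all 10 genes lay lower than in controls (47.9% of all genes lay higher), by a median log2 fold change of -0.98 against -0.02 over all genes. Sox17 averaged 0.835 ± 0.159 CPM against 2.88 ± 2.12 CPM in controls, a log2 fold change of -1.78 ± 0.68 (adjusted p = 0.744 by edgeR's quasi-likelihood test). Every 10% EtOH library lay below every control for Sox17, as for 3.97% of all genes. Sox17, Cldn5 (-1.18 ± 0.55) and Cdh5 (-1.06 ± 0.50) had an unadjusted p under 0.05, which 6.66% of all genes had.

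These lower levels depended on 1 control. Without control cessation replicate 3 the median of the 10 genes was -0.21, Sox17 lay at -1.05, Emcn at 0.00 and Kdr at 0.07, while without control cessation replicate 2 the median was -1.44 and Sox17 lay at -2.18. None passed in either fit. Against 6% EtOH, the 10% EtOH libraries after cessation lay lower by a median log2 fold change of -1.05, with Sox17 at -1.74 ± 0.68 and Cldn5 at -1.27 ± 0.55 (adjusted p = 0.634 for each). These 2 members had an unadjusted p under 0.05, as had 7.85% of all genes. Without 6% EtOH cessation replicate 1 the median was -0.40, with Sox17 at -1.04, Cldn5 at -0.40 and Tek at 0.13. The change of the 10% EtOH effect from 10 weeks to cessation was -2.54 ± 0.98 for Sox17 and -1.87 ± 0.79 for Cldn5 (adjusted p = 0.645 for each), with a median of -1.37 over the 10 genes. Both had an unadjusted p under 0.05, as had 7.44% of all genes. Without control cessation replicate 3 that median was -0.68, with Sox17 at -1.82, Cldn5 at -1.47, Kdr at 0.09 and Sox18 at 0.62. The change of the 6% EtOH effect had a median of -0.23, which was 0.66 without control cessation replicate 3, 0.18 without 6% EtOH cessation replicate 3 and 0.11 without control replicate 2 of 10 weeks. It was -0.85 without 6% EtOH cessation replicate 1, -0.70 without control cessation replicate 2 and -0.41 without control replicate 3 of 10 weeks. In the same later 10% EtOH and control groups the median log2 difference was -1.82 for markers of T and NK cells (8 of 9 below 0). For some of the other lists it was as follows: basal cell markers -0.94 (5 of 5), smooth muscle markers -0.63 (9 of 9), red cell markers -0.62 (5 of 5), germ cell markers -0.59 (6 of 7), pericyte markers -0.29 (7 of 8) and adipocyte markers 1.08 (2 of 7 below 0). Medians of the remaining lists are not given here. Caput epithelium sums overlapped, at 34760 to 89500 CPM in these controls and 62940 to 84530 CPM with 10% EtOH. T and NK cell sums overlapped too, at 105.3 to 417.9 CPM and 215.4 to 319.3 CPM. Klrb1c was the largest part of them (median 280 CPM over the later libraries). The other T and NK markers were low, with medians from 0.265 (Nkg7) to 2.12 CPM (Cd3e). None of these list medians is given without control cessation replicate 3. The part of these cell types in the values of the 10 genes was not tested.

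**Figure D3:**
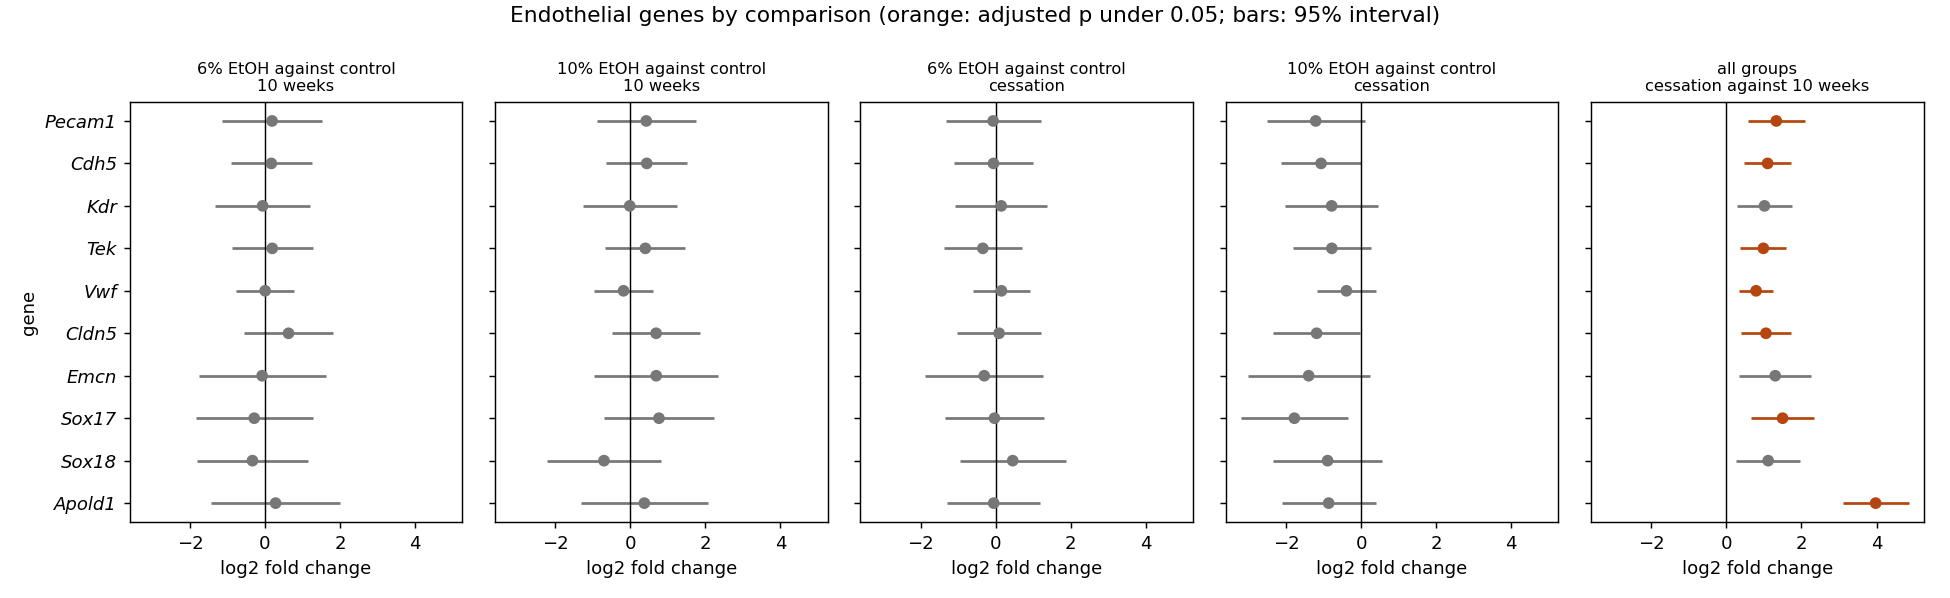
Log2 fold changes of the 10 genes with 95% intervals in 4 comparisons of EtOH with control and in the comparison of the times; orange marks an adjusted p under 0.05. No gene is orange in the EtOH panels, where the intervals include 0 except those of Cdh5, Cldn5 and Sox17 for 10% EtOH after cessation, and 7 genes are orange in the last panel, with Apold1 farthest to the right at 3.98.

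Comparing times over all 6 groups, 9 libraries after cessation against 9 at 10 weeks, 7 of the 10 endothelial genes were higher after cessation and none was lower. Of all genes 17.9% passed, 10.7% being higher and 7.21% lower after cessation, and 36.7% had an unadjusted p under 0.05. Apold1 rose most, 15.8-fold, from 0.569 ± 0.186 to 9.26 ± 6.59 CPM (SD, n = 9), a log2 fold change of 3.98 ± 0.41 (adjusted p = 4.85e-05). Its libraries did not overlap between the times, all later ones being higher, which held for 0.306% of all genes.

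The other members that passed rose by 1.73 to 2.83-fold. Sox17 rose by a log2 fold change of 1.498 ± 0.402 (adjusted p = 0.0243), Pecam1 by 1.33 ± 0.36 (0.0259) and Cdh5 by 1.10 ± 0.29 (0.0251). Cldn5 rose by 1.05 ± 0.32 (0.0340), Tek by 0.99 ± 0.29 (0.0323) and Vwf by 0.79 ± 0.21 (0.0255). Kdr, Emcn and Sox18 lay higher by 1.02 ± 0.34, 1.30 ± 0.45 and 1.11 ± 0.41, with adjusted p of 0.0506, 0.0549 and 0.0634, and did not pass. The median over the 10 genes was 1.11, against 0.05 over all genes. All of these genes except Apold1 overlapped between the times. The share of mitochondrial reads was 0.892% to 2.85% in the libraries of 10 weeks and 1.10% to 5.08% after cessation, and its part in the difference was not tested.

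Apold1 was the only member to pass in each of the 18 fits that left out 1 library. Without the 2 libraries farthest on the first principal component it lay at 3.46 (adjusted p = 1.09e-05) and passed alone among the 10, where 2.47% of all genes passed. The other 9 then had adjusted p of 0.116 (Cdh5) to 0.318 (Sox18), and the median of the 10 was 0.61. Apold1 was also the only member past the threshold without 6% EtOH cessation replicate 1 (3.80), without control cessation replicate 3 (3.65), without 10% EtOH cessation replicate 3 and without control replicate 2 of 10 weeks (4.14). The count of 7 fell to 2 without 10% EtOH replicate 1 of 10 weeks and to 3 or 4 without 10% EtOH replicate 2 of either time, 6% EtOH replicate 2 of 10 weeks or control cessation replicate 1. With no control cessation replicate 2, or no 6% EtOH cessation replicate 3, all 10 passed. Shares of all genes are not given for the fits that left out 1 library, so these counts lack their background.

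Within the controls, which share libraries with the comparison above, 1 of 10 genes passed between the times, where 0.118% of all genes did. Apold1 averaged 11.1 ± 10.2 CPM after cessation against 0.485 ± 0.292 CPM at 10 weeks (SD, n = 3), a log2 fold change of 4.50 ± 0.73 (adjusted p = 0.0262). Its later controls all lay above its earlier ones, as for 12% of all genes. Its call was lost without any 1 of the 3 controls of 10 weeks or without control cessation replicate 3. The other 9 genes lay higher by 0.81 (Vwf) to 2.26 (Sox17), with adjusted p of 0.116 to 0.458, and the median of the 10 was 1.77. Without control cessation replicate 3 the median was 1.07, with Sox18 at 0.11, Kdr at 0.35, Emcn at 0.69 and Pecam1 at 1.09. At an unadjusted p under 0.05 were 8 of the 10, and 20.3% of all genes.

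Set against Cdh5, a structural gene of the same cells, Apold1 stood apart from the other members. Per 100 Cdh5 reads there were 1.77 to 13.6 Apold1 reads in the libraries of 10 weeks (median 4.48) and 22.9 to 46.7 after cessation (median 32.8), with no overlap. The other 8 genes overlapped between the times on this scale. Pecam1 had a median of 90.4 reads per 100 Cdh5 reads at 10 weeks and 88.6 after cessation, Kdr 126 and 124, Emcn 30.7 and 31.3, and Sox18 12.4 and 12.8. Vwf lay at 199 and 169, Tek at 35.4 and 28.7, Cldn5 at 22 and 19 and Sox17 at 5.47 and 6.92. The r of Apold1 with the mean of the other 9 genes was -0.268 over the 9 libraries of 10 weeks, resting on 4 to 14 reads per library, and 0.944 over the 9 after cessation. Sox18 likewise had 0.177 and 0.918, and Vwf 0.474 and 0.960.

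**Figure D4:**
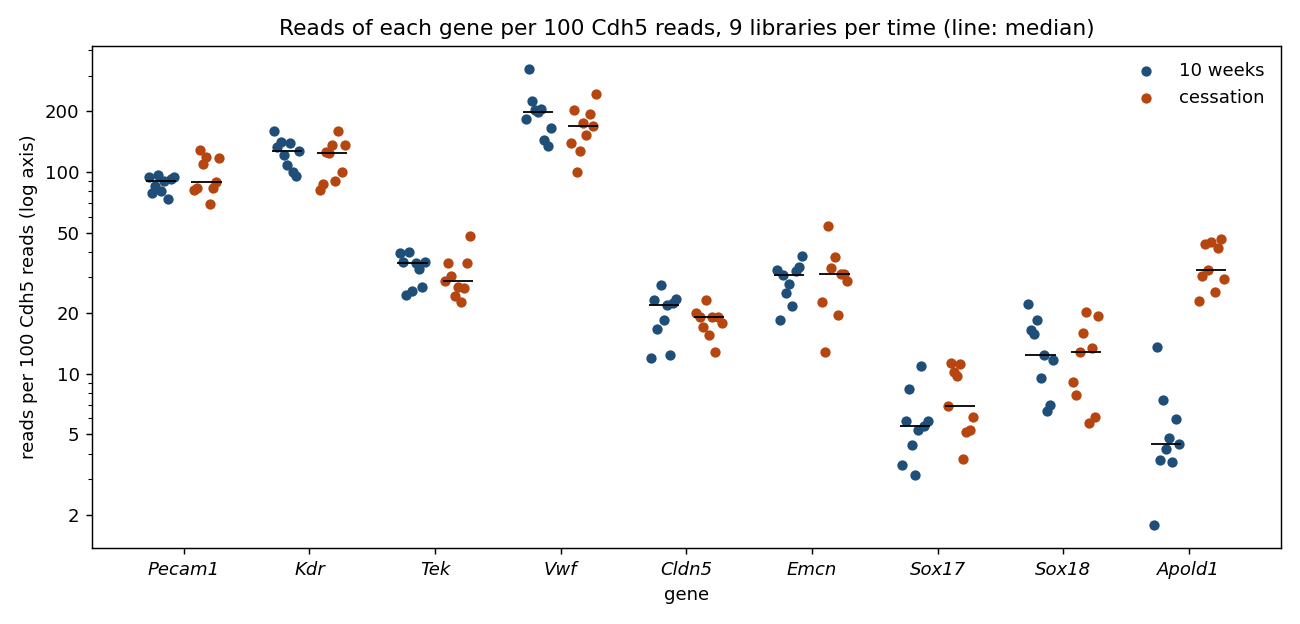
Reads of each of the other 9 genes per 100 Cdh5 reads (log axis), each point a library, 9 per time, with lines at the medians. Blue (10 weeks) and orange (cessation) points overlap for 8 genes and are apart for Apold1, at 1.77 to 13.6 and 22.9 to 46.7.

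Other vascular genes were read from 7 lists of 91 genes in all, some in more than 1 list, in the comparison of the times over all groups. The background for the counts of these lists is that 10.7% of all genes rose and 7.21% fell. Without the 2 outlying libraries 2.47% of all genes passed, counting both directions. Of 25 further endothelial genes, 20 rose and 1 fell (median log2 fold change 1.15). Procr, the endothelial protein C receptor, rose by 3.36 ± 0.54 (adjusted p = 0.00390), from 0.450 to 1.74 CPM in the libraries of 10 weeks to 1.10 to 34.4 CPM after cessation. Aplnr, the apelin receptor, rose by 1.51 ± 0.31 (0.0113). Cd34, a sialomucin also found on fibroblasts, fell by 0.52 on the log2 scale (SE 0.10, adjusted p = 0.00642). Without the 2 outlying libraries 2 of the 25 rose and 1 fell, with Procr at 2.59 (0.00416) and Cd34 at -0.49 (0.0193).

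Among 9 ligands of the VEGF, angiopoietin and apelin families, 3 rose. They were Angpt2, the angiopoietin that loosens vessels (1.10 ± 0.25, adjusted p = 0.0156), Vegfd, a lymphatic growth factor (1.36 ± 0.30, 0.0156), and Angpt4 (0.94 ± 0.24, 0.0209). Vegfa, the ligand of Kdr, lay at 0.15 ± 0.12 (0.381), with 74.1 to 93.1 CPM at 10 weeks and 60.8 to 172 CPM after cessation. Of 7 receptors and partners, 5 rose: Tie1, the partner of TIE2 (1.39 ± 0.32, 0.0175), Aplnr, the phosphatase Ptprb (0.98 ± 0.26, 0.0252), the co-receptor Nrp2 (0.87 ± 0.25, 0.0319) and Flt1, VEGF receptor 1 (1.21 ± 0.35, 0.0314). No ligand and no receptor passed without the 2 outlying libraries.

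Transcription factors of endothelium rose in 9 of 17 tested cases, and in 3 without the outlying libraries. Klf2, a factor induced by blood flow, measured 2.20 to 3.69 CPM at 10 weeks and 6.32 to 15.9 CPM after cessation, with no overlap (log2 fold change 1.88 ± 0.18, adjusted p = 1.48e-05, and 1.65 without the outlying libraries). Klf4 rose by 1.58 ± 0.19 (0.000201) and Gata2 by 0.88 ± 0.18 (0.0108). Klf2 was also the one gene of these 7 lists that passed within the controls (1.69, adjusted p = 0.0417). Both Klf2 and Klf4 belong to the list of immediate early genes as well and are not limited to endothelium. Of 10 Notch pathway genes, the ligands Dll4 (1.44 ± 0.31, 0.0132) and Jag1 (0.49 ± 0.16, 0.0426) and the targets Hes1 (0.67 ± 0.21, 0.0391) and Heyl (1.06 ± 0.35, 0.0444) rose, and the receptor Notch1 fell by 0.35 on the log2 scale (0.0157). Without the outlying libraries Notch1 alone of these passed (-0.30, 0.0380).

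Junction and adhesion genes included the largest differences. Sele, the E-selectin that activated endothelium displays to leukocytes, was at 0 to 0.116 CPM in the libraries of 10 weeks and 1.33 to 16.9 CPM after cessation (adjusted p = 0.000347). At these levels Sele passed the low-count filter only through the libraries after cessation, so its call and lack of overlap are a description. Selp, the P-selectin stored beside von Willebrand factor, was at 0.116 to 1.06 CPM and 1.84 to 65.7 CPM (log2 fold change 4.36 ± 0.60, adjusted p = 0.00107), and Vcam1, a leukocyte ligand, rose by 1.59 ± 0.26 (0.00480). Selp did not overlap between the times, and Selp and Vcam1 passed without the outlying libraries (0.00114 and 0.0119). The Sele value in that fit (2.59e-05) is likewise a description, given how Sele passed the filter. Of the 19 genes of the list 9 rose and 1 fell, which was Nectin2 (-0.39 ± 0.08, 0.0128). Without the outlying libraries 5 rose and 1 fell. Both counts of genes that rose include Sele. Of 12 tested genes of Weibel-Palade bodies and haemostasis 8 rose, led by Selp, Procr and Angpt2, and Cd63, a tetraspanin of many cell types, fell by 0.40 (0.0271). Without the outlying libraries 2 rose. Nectin2 and Cd63 were named after their values had been seen.

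In the EtOH comparisons none of the 91 genes passed. Their list medians after cessation with 10% EtOH against control were all below 0, from -0.91 for the further endothelial genes to -0.24 for the transcription factors, and those with 6% EtOH lay between -0.06 and 0.08. All lists share the same controls and are not given without control cessation replicate 3. In that library the further endothelial genes summed to 698.5 CPM, against 476.9 and 220.8 CPM in control cessation replicates 1 and 2. At 10 weeks they lay between -0.16 and 0.12 with 6% EtOH and between -0.23 and 0.40 with 10% EtOH.

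Several lists of markers of other cells held genes that rose between the times, set here beside the 10.7% of all genes that did. Summed over the 10 genes, the level was 43.5 to 88.8 CPM at 10 weeks and 51.1 to 316 CPM after cessation. Pericyte markers summed to 67.1 to 94.3 CPM and 64.1 to 184 CPM, and 6 of 8 rose (0 without the outlying libraries). Of 9 smooth muscle markers 8 rose (1 without the outlying libraries) while their sums, 1285 to 2124 CPM over the 18 libraries, overlapped between the times. The largest part of these sums at 10 weeks was Actg2, whose median was 1480 CPM then and 925 CPM after cessation. The medians of Acta2 were 92.4 and 194 CPM and those of Myh11 139 and 295 CPM, so the sums do not describe the other markers. Of 7 lymphatic markers 4 rose, of 10 fibroblast markers 4 while 1 fell, of 11 macrophage markers 2 and of 8 markers of efferent duct ciliated cells 5. None of these 4 lists held a call without the outlying libraries. Of 11 genes of the caput epithelium none rose and 5 fell (1 without the outlying libraries), with sums of 70600 to 121000 CPM at 10 weeks and 34800 to 89500 CPM after cessation. The lowest epithelial sums were those of control cessation replicate 3 (34760 CPM) and 6% EtOH cessation replicate 1 (35220 CPM), the libraries highest in endothelial genes. Of the adipocyte, T and NK cell and nerve markers tested (7, 9 and 3) none passed, and 1 of 5 basal cell, 1 of 5 clear cell and 3 of 7 germ cell markers rose. Without the outlying libraries 1 clear cell marker rose, 1 basal cell marker fell and no germ cell marker passed. The part of these cell types in the results was not tested.

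Blood held in the vessels was read from platelet and red cell markers. Of 8 platelet markers 3 were tested and none passed, their sums being 11.2 to 19.8 CPM at 10 weeks and 16.1 to 21.7 CPM after cessation, and 5 of the 8 were at 0 in at least 1 library. Of 5 tested red cell markers 2 rose, with sums of 15.7 to 139 CPM and 29.5 to 167 CPM, and none passed without the outlying libraries. Immediate early genes, a set that many cell types switch on rapidly when stimulated, rose in 20 of 21 cases and fell in 1, Egr2, with sums of 678 to 836 CPM at 10 weeks and 1110 to 3520 CPM after cessation. Egr2 was the largest part of these sums at 10 weeks, with a median of 364 CPM then and 276 CPM after cessation. The sums therefore understate the difference of the genes that rose. Without the outlying libraries 19 of the 21 rose. Their part in the Apold1, Klf2, Sele and Selp differences was not tested.

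**Figure D5:**
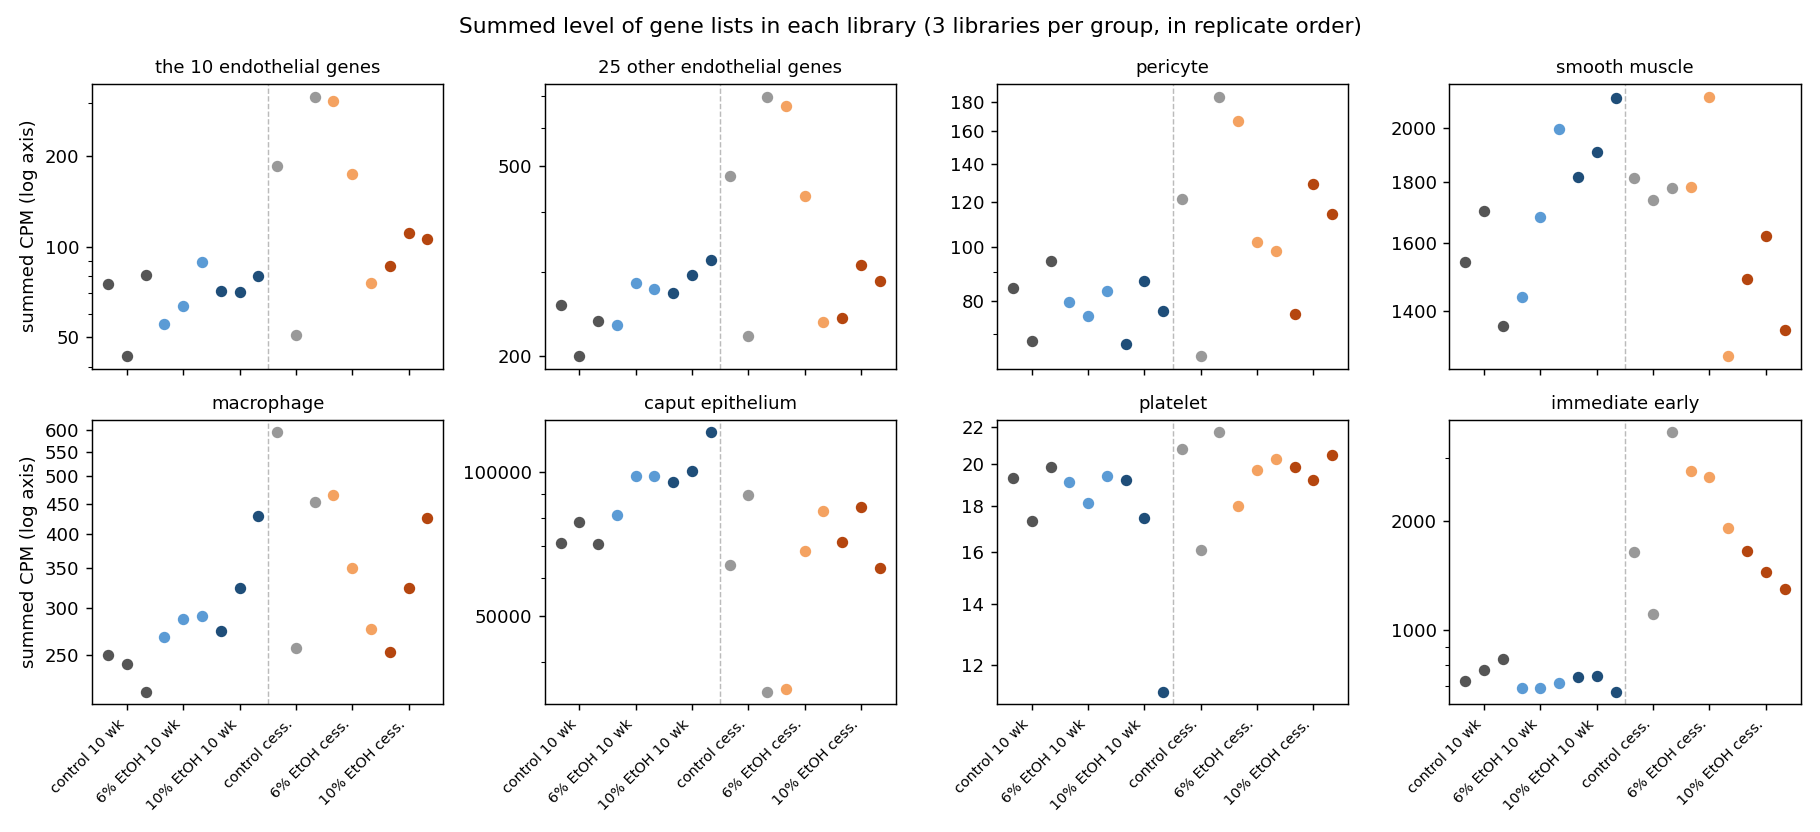
Summed CPM (log axis) of 8 gene lists in each library, coloured by group in replicate order. The 10 endothelial genes, the 25 further endothelial genes and the pericyte list peak in control cessation replicate 3 and 6% EtOH cessation replicate 1, where the caput epithelium list is lowest (34760 and 35220 CPM), and the immediate early list is higher in all 9 libraries after cessation.

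Genes whose pattern was most like the mean of the 10 were sought among 13120 genes whose log2 CPM averaged 1 or more, over the 18 libraries. The 10 closest were Cd93 (r = 0.987), Podxl (0.986), Ptprb (0.982), Timp3 (0.980), Igfbp3 (0.979), Myl9 (0.973), Mcam (0.972), Igfbp2 (0.972), Acta2 (0.971) and Col4a2 (0.971). Cd93, Podxl, Ptprb and Mcam were on the vascular lists. Myl9 and Acta2 encode contractile proteins and Col4a2 a basement membrane collagen. An r of 0.9 or more was reached by 229 genes, which included 25 of the 74 vascular list genes that were ranked. These values describe shared variation over libraries that also share depth and cell content.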

How the data were processed

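RNA was measured in 18 caput libraries. Total RNA came from a Qiagen RNeasy mini kit and reads from an Illumina HiSeq, per the labels' protocols. The tools named in the submitters' processing notes are Trimmomatic, STAR and featureCounts, with build GRCm39. Not given in the sources used here are versions, annotation, strand setting and multimapping, so reads of overlapping antisense genes cannot be told apart. The authors deposited whole-number counts per gene. Here genes were filtered with filterByExpr (minimum count 10, minimum total 15; at least 99.7% of reads kept), scaled by TMM (0.914 to 1.20) and tested with edgeR 4.0.16 (R 4.3.3), robust quasi-likelihood, all 18 libraries, 1 term per group, two-sided, Benjamini-Hochberg over 18618 genes, threshold 0.05. The comparison of the times averages the 3 treatments. Levels are CPM, with a prior count of 0.5 on the log2 scale, and exon lengths came from an earlier build (GRCm38). Replicates differed beyond sampling noise (chi-square per degree of freedom 5.79 or more). The code was tested on simulated data. DESeq2 1.42.0, limma 3.58.1, other scalings, filters and left-out libraries were alternatives.

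The 10 genes and the lists were chosen with earlier results of these data known. All 10 were named. Of each vascular list every gene past the threshold was named where fewer than 6 passed, and otherwise the 3 of smallest p. Lists with no call are given by medians, and the pairs of smallest p that the rule would add there were left out. Vegfa was named as the ligand of Kdr. Likeness was ranked by Pearson r with the mean centred log2 CPM of the 10 genes.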

Additional observations from a re-analysis of the deposited data

How the results depend on the processing

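Over 1638 refits of single genes, 1413 kept direction and side of the threshold, 64 lost and 48 gained a call, 113 changed sign while uncalled and none was a called reversal. With no low-count filter, 4 endothelial genes passed for 10% EtOH against control after cessation, 4 for 10% against 6% EtOH after cessation, 3 for the change of the 10% EtOH effect and 9 for controls between the times. For controls between the times (1 as reported) DESeq2 gave 6, and library totals, voom with group weights and the 6 control libraries alone gave 0. Leave-outs ranged from 0 to 9 there and from 1 to 10 for all groups between the times (7 as reported). The latter count was 1 without the 2 libraries farthest on the first principal component, an alternative chosen after seeing the data. The cause of these shifts was not tested. Shares of all genes are not given for these refits, except 2.47% without the 2 farthest libraries. The other counts therefore cannot be set against their background. Apold1 passed between the times in all 25 alternatives over all groups (highest adjusted p = 0.00103). With 3 libraries per group and Apold1 at 4 to 14 reads at 10 weeks, its fold change is less precise than its direction. No paired analysis was possible because no identifier in the sample titles is shared between groups.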
